A study of Mus musculus with 12 samples.

Results

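The 9 genes described here encode receptors and bridging proteins through which phagocytes take up myelin debris: the receptors Axl, Mertk, Tyro3, Megf10, Msr1 and Lrp1 and the secreted proteins Gas6, Pros1 and Mfge8. They were chosen by name, as the rows of the raw count table that carry these symbols, and make up 9 of its 38087 gene models. All 9 had enough counts to be tested, among 22384 gene models tested in all.

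When a peripheral nerve is cut, the axon beyond the cut breaks down, and Schwann cells and recruited macrophages clear its myelin. Axl, Mertk and Tyro3, together the TAM receptors, are tyrosine kinases that do not touch debris directly; Gas6 and protein S, the product of Pros1, bind phosphatidylserine on its surface and bridge it to them. Megf10 recognises dying cells and debris through its EGF-like repeats and is known for engulfment by astrocytes, Msr1 is a scavenger receptor of macrophages for modified lipoproteins, Lrp1 is a large endocytic receptor found on many cell types, and Mfge8 bridges phosphatidylserine to integrins.

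The study compared mouse sciatic nerve by genotype and injury, with polyadenylated RNA from 4 groups and 3 libraries a group, which the design text calls biological replicates. Tfeb/3 SC-dKO mice, here dKO (Dhh-Cre+:Tfebflox/flox;Tfe3KO), lack Tfe3 in all cells and lose Tfeb where the Schwann cell lineage driver Dhh-Cre is active; control mice (Dhh-Cre-:Tfebflox/flox;Tfe3+) carry the same floxed Tfeb alleles without Cre. In each genotype the distal nerve was taken 5 days after transection (5DPI), with the millimetre or so next to the cut discarded, and intact nerve came from the uncut side. Epineurium was stripped from intact nerves only, so nerve wrapping and injury cannot be told apart in the injury comparisons. Since Tfe3 is lost everywhere, macrophages and fibroblasts of dKO nerve also differ in genotype from those of control nerve. The labels do not say which cut and uncut nerves came from the same animal. The sources used here give no age, strain or sex of the animals.

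Library totals ran from 15430999 to 35845371 counts. Tfe3 lay between 49.5 and 53.8 CPM (counts scaled to library size) in dKO 5DPI nerves, against 55.0 to 67.6 CPM in control 5DPI nerves, and between 43.3 and 47.4 CPM in dKO intact nerves, against 56.7 to 62.1 CPM in control intact nerves. Tfeb lay between 14.2 and 29.8 CPM in dKO 5DPI, 18.2 and 24.0 CPM in control 5DPI, 17.0 and 19.5 CPM in dKO intact and 22.6 and 26.9 CPM in control intact nerves. Neither passed the test in any comparison, and counts over a whole gene do not show whether an exon is missing. Control intact replicate 2 stood apart: 97 of 13134 well-measured genes, Gas6 among them, were over 4 times lower there than in the lowest of the other intact libraries, against 0 to 2 such genes in each of the others. Its 8 fat cell markers summed to 323 CPM, against 878 to 3117 CPM in the other 5 intact libraries. Control 5DPI replicate 1 had 10712 Xist counts and few Y-linked counts, as in a female, whereas every other library had at most 23 Xist counts, so its own uncut nerve is not among the control intact libraries. Its red cell markers summed to 13531 CPM, against 272 to 2018 CPM in the other 5DPI libraries. Its lymphocyte markers summed to 18.3 CPM, against 3.18 to 6.97 CPM in those libraries. The 3 dKO 5DPI libraries and control 5DPI replicate 4 formed a second set, with reads on 174 to 380 olfactory receptor genes at equal depth, against 53.4 to 75.9 in the other 8 libraries. Injury in dKO nerve is therefore aligned with that set, and genotype at 5 days nearly so. A fit with a term for the set can estimate it only within control 5DPI nerve, where replicate 4 alone belongs to the set. Under that term, genotype at 5 days sets the dKO libraries against that control library alone. Calls kept or lost under the term, also for injury in dKO nerve, rest on it. Log2 differences of the 9 genes printed below that are over 0.1 in size are given also without control intact replicate 2 or control 5DPI replicate 1 where that moved them by over 1.5 times or changed their call.

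At 5 days after transection, dKO nerve held less Megf10 and Pros1 messenger RNA than control nerve. Megf10 averaged 31.4 ± 4.09 CPM in dKO 5DPI nerves and 96.0 ± 6.18 CPM in control 5DPI nerves (SD, n = 3 each), and Pros1 averaged 139 ± 2.98 CPM in dKO 5DPI nerves and 244 ± 30.9 CPM in control 5DPI nerves. Lrp1 was slightly higher in dKO 5DPI nerve, and the other 6 genes did not pass the test. Thus 1 of the 9 was called higher and 2 lower, where 3.12% of all tested genes were called higher and 8.97% lower, 12.1% in all (edgeR quasi-likelihood test, Benjamini-Hochberg adjusted p under 0.05). In 6 of the 9 the dKO and control 5DPI values did not overlap, as in 30.5% of all tested genes. In intact nerve, none of the 9 was called by genotype with edgeR or DESeq2, 2 had an unadjusted p under 0.05 with edgeR, as did 5.8% of all tested genes, and 0.00447% of all tested genes were called, 0% higher and 0.00447% lower. In 2 of the 9, Megf10 and Lrp1, the intact values of the genotypes did not overlap, as in 14.6% of all tested genes. The edgeR p-values set each difference against the spread within groups, which the fit estimates over all 12 libraries. A library outside a comparison therefore also bears on its p-value. In whole nerve, fewer cells of a type and less RNA per cell cannot be told apart.

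Most of these genes differed between 5DPI and intact nerve in both genotypes. Nerve wrapping also differed between these states, and in dKO nerve the library set did too. In dKO nerve, 5 of the 9 rose and 3 fell, where 44.7% of all tested genes were called, 22% higher and 22.6% lower. In control nerve, 5 rose and 1 fell, where 46.8% were called, 24.4% higher and 22.4% lower. All 9 genes had 5DPI and intact values that did not overlap in dKO nerve, as did 61% of all tested genes, and 6 did in control nerve, as did 53.3%. With a term for the library set, 4 of the 9 rose and 1 fell in dKO nerve, the calls of Mertk, Tyro3 and Mfge8 being lost, where 9.59% of all tested genes were called higher and 9.62% lower in that fit. The median log2 change of the 9 was 0.94 in dKO nerve and 0.89 in control nerve, against 0.05 and 0.09 for all tested genes.

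**Figure D1:**
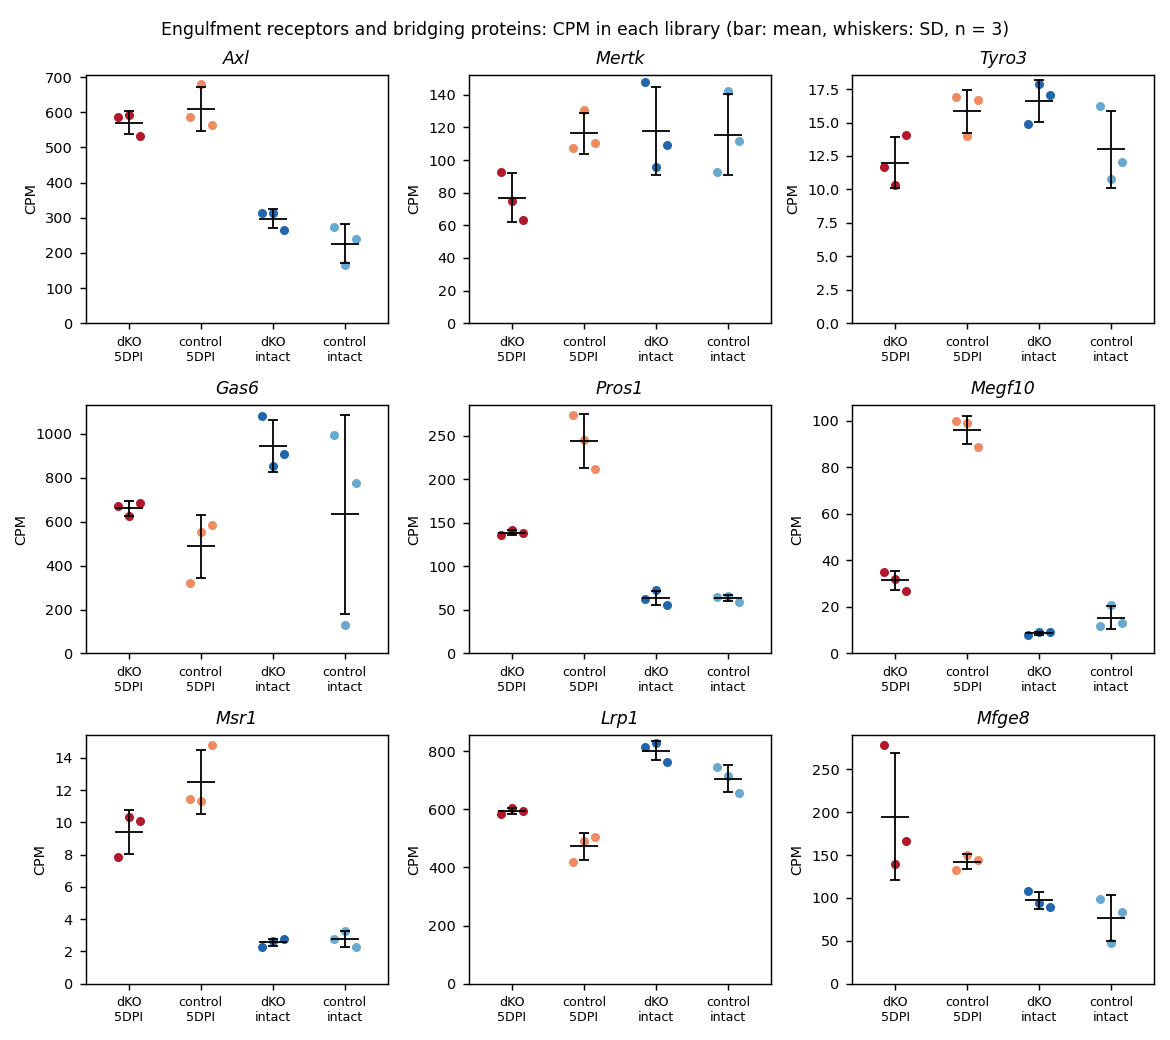
CPM of each of the 9 genes in the 12 libraries on a linear axis from 0, with dKO 5DPI, control 5DPI, dKO intact and control intact groups from left to right; points are libraries, bars group means and whiskers 1 SD (n = 3). Megf10 and Pros1 sit lower in all 3 dKO 5DPI libraries than in all 3 control 5DPI libraries, and Gas6 has 1 low library among control intact nerves.

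Megf10 had 35.1, 32.1 and 27.0 CPM in dKO 5DPI nerves, against 100.1, 99.1 and 88.9 CPM in control 5DPI nerves. In intact nerves it had 7.89, 9.03 and 9.06 CPM in dKO, against 11.9, 21.0 and 13.3 CPM in control. Every dKO value lay below every control value of the same injury state, and every 5DPI value above every intact value of its genotype. At 5 days Megf10 was 0.327 times as abundant in dKO as in control nerve (log2 change -1.61 ± 0.18 SE, edgeR adjusted p = 5.42e-05). The genotype difference in intact nerve, -0.83 ± 0.18, was not called (edgeR adjusted p = 0.841, unadjusted p = 0.000461), and without control intact replicate 2 it was -0.52. It was called in 0 of 16 alternatives, with adjusted p as low as 0.053. Megf10 rose with transection by 1.86 ± 0.18 on the log2 scale in dKO nerve (adjusted p = 1.77e-06) and by 2.64 ± 0.19 in control nerve (adjusted p = 3.66e-08). The dKO change minus the control change was -0.78 ± 0.25 and was not called (adjusted p = 0.125). Without control intact replicate 2, whose Megf10 value was the highest of the intact nerves, it was -1.05 (adjusted p = 0.00458), with adjusted p from 0.00458 to 0.548 over 21 alternatives. The genotype call at 5 days was kept in 16 of 16 alternatives, among them the fit without control 5DPI replicate 1 (-1.58). With a term for the library set, which leaves control 5DPI replicate 4 as the only control library compared, the difference was -1.50. Control 5DPI replicate 4, which shares the second set with the dKO libraries, had 88.9 CPM. That was above all 3 dKO 5DPI values and was the lowest of the control 5DPI values. The comparison within the set rests on this 1 control library.

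Pros1, the gene for protein S, had 136, 142 and 138 CPM in dKO 5DPI nerves, against 274, 245 and 212 CPM in control 5DPI nerves. Intact nerves had 62.6, 72.7 and 56.1 CPM in dKO, against 64.5, 66.5 and 59.7 CPM in control. The genotypes overlapped in intact nerve and were apart at 5 days. The genotype difference at 5 days was -0.81 ± 0.11 on the log2 scale (0.570 times, adjusted p = 0.000393), and that in intact nerve was 0.0053 ± 0.12 (adjusted p = 0.997). Pros1 rose with transection 2.18-fold in dKO nerve (log2 change 1.12 ± 0.12, adjusted p = 2.75e-06) and 3.83-fold in control nerve (1.94 ± 0.12, adjusted p = 8.73e-09). Differences between the responses of similar size in Megf10 (-0.78 ± 0.25) and Tyro3 (-0.75 ± 0.26) were not called. Pros1 was the 1 gene of the 9 whose response to transection was called different between genotypes, by -0.82 ± 0.16 (adjusted p = 0.0135), where 2.9% of all tested genes were called, 0.737% higher and 2.17% lower. That call was kept in 20 of 21 alternatives and was lost with the library set term (-0.62, adjusted p = 0.187), over a range of adjusted p from 0.00144 to 0.187. The genotype call at 5 days was kept in 16 of 16 alternatives, with -0.72 without control 5DPI replicate 1 and adjusted p up to 0.0420 under the set term. Control 5DPI replicate 4 had 212 CPM, above every dKO 5DPI library of its set and below the other control 5DPI libraries. Here too the comparison within the set rests on 1 control library.

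The Pros1 promoter is shown because Pros1 was the member whose injury response was called different between genotypes, and the genes removed, Tfeb and Tfe3, encode transcription factors. The sequence is from RefSeq (GRCm38.p6, chr16:62854057-62854306, plus strand), the 250 bases that end just before the gene's start.
Pros1: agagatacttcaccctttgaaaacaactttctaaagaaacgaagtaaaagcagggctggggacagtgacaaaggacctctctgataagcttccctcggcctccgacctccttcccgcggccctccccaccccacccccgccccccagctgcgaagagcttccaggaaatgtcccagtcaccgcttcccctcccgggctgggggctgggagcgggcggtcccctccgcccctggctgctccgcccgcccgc
It is printed wholly in lower case because none of the motifs searched was found in it. They were CACGTG, the E-box letters to which TFEB and TFE3 are known to bind, and TGANTCA, the AP-1 letters, each on both strands. A stretch can hold both with shared letters, where CACGTG runs into TGANTCA. Of 32851 promoters of the same length, 6.02% held CACGTG and 6.75% held TGANTCA. Promoters of 7 of the 9 genes were matched by symbol, and none held either motif. The absence says only that these letters are not in these windows. Promoters on the chromosome of Megf10 were left out of this search, so Megf10 was not searched. Msr1 had no entry.

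Among the TAM receptors, Axl rose with transection in both genotypes and did not differ detectably between them. Axl had 586, 592 and 534 CPM in dKO 5DPI nerves, against 314, 313 and 266 CPM in dKO intact nerves. Control nerves had 586, 682 and 563 CPM at 5DPI, against 275, 166 and 239 CPM when intact. All 5DPI values lay above all intact values. The change was 0.94 ± 0.15 on the log2 scale in dKO nerve (adjusted p = 0.000209) and 1.43 ± 0.16 in control nerve (adjusted p = 3.4e-06). At 5 days the genotypes overlapped (-0.10 ± 0.15, adjusted p = 0.724). The dKO minus control difference of the changes was -0.49 ± 0.22 (adjusted p = 0.286), or -0.29 without control intact replicate 2, which had the lowest Axl value.

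Mertk, which macrophages use to take up dying cells, moved differently from Axl. It had 92.6, 75.2 and 63.3 CPM in dKO 5DPI nerves, against 148, 95.9 and 109 CPM in dKO intact nerves. In control nerves it had 108, 131 and 111 CPM at 5DPI, against 93.0, 142 and 112 CPM when intact. The dKO 5DPI libraries lay below all other libraries, although the lowest control intact value, 93.0 CPM, was close to the highest of them. Mertk fell in dKO nerve (-0.61 ± 0.19, adjusted p = 0.0184) and did not pass in control nerve (0.0086 ± 0.19, adjusted p = 0.976). The call in dKO nerve was lost in 5 of 16 alternatives, over adjusted p from 0.00196 to 0.373. The genotype difference at 5 days was -0.59 ± 0.19 and narrowly missed the threshold with edgeR (adjusted p = 0.0589). It was called in 4 of 16 alternatives, DESeq2 among them (adjusted p = 0.0437), over adjusted p from 0.0151 to 0.493. The difference between the 2 injury responses was not called (-0.62 ± 0.27, adjusted p = 0.275) and was -0.38 without dKO intact replicate 2.

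Tyro3 was the least abundant TAM receptor per kilobase of exon in every group. It had 11.7, 10.3 and 14.0 CPM in dKO 5DPI nerves, against 14.9, 17.9 and 17.1 CPM in dKO intact nerves. Control nerves had 16.9, 14.0 and 16.7 CPM at 5DPI, against 16.2, 10.7 and 12.1 CPM when intact. The fall in dKO nerve only just passed (-0.47 ± 0.18, adjusted p = 0.0474) and was lost in 7 of 16 alternatives, over adjusted p from 0.0251 to 0.253. In control nerve the value was 0.28 ± 0.18 (adjusted p = 0.221), or 0.11 without control intact replicate 2, and the difference between the responses was not called (-0.75 ± 0.26, adjusted p = 0.149).

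Because Axl rose and Mertk did not, the make-up of the TAM receptors shifted. Per kilobase of exon, Axl made up 83.4%, 86.1% and 86.3% of the summed TAM level in dKO 5DPI nerves and 80.9%, 80.7% and 79.9% in control 5DPI nerves. In intact nerves its share was 63.0%, 71.3% and 65.4% in dKO and 69.4%, 48.9% and 63.2% in control. Each dKO 5DPI share lay above each control 5DPI share, and each 5DPI share above each intact share. Mertk made up 11.9% to 15.3% in dKO 5DPI nerves, 17.2% to 18.2% in control 5DPI nerves, 25.4% to 34.5% in dKO intact nerves and 27.3% to 48.5% in control intact nerves. These ratios within a library do not depend on library scaling. They are descriptions, with no test.

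**Figure D2:**
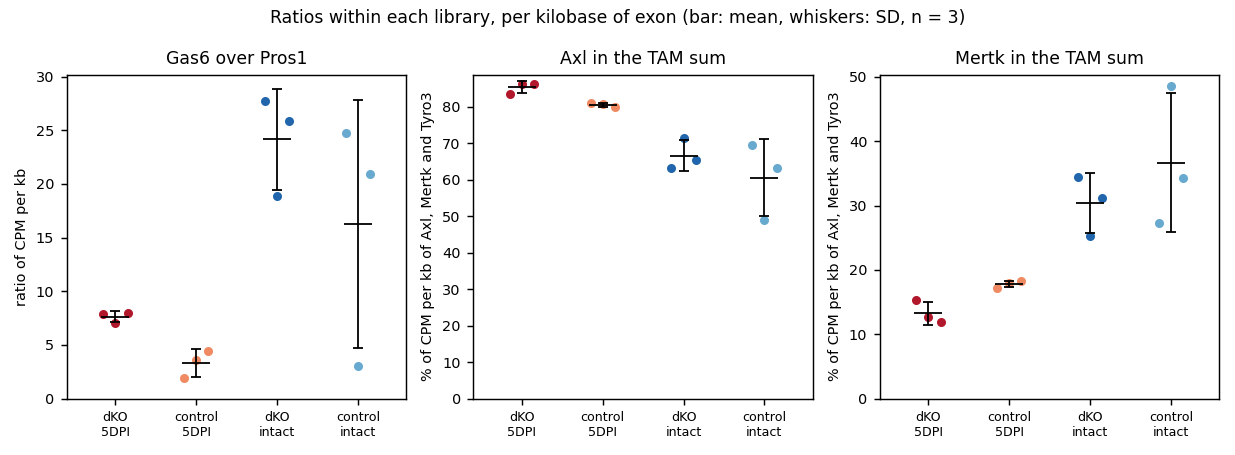
Within-library ratios per kilobase of exon in the 12 libraries, with groups as dKO 5DPI, control 5DPI, dKO intact and control intact from left to right: the Gas6 to Pros1 ratio, and the shares of Axl and of Mertk in the sum of Axl, Mertk and Tyro3 (percent), with points for libraries, bars for means and whiskers for 1 SD (n = 3). The Gas6 to Pros1 ratio lies between 7.05 and 7.98 in dKO 5DPI nerves and between 1.88 and 4.44 in control 5DPI nerves, and the lowest intact point of this ratio is control intact replicate 2.

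Gas6, the ligand of all 3 TAM receptors, had 671, 624 and 687 CPM in dKO 5DPI nerves, against 321, 554 and 587 CPM in control 5DPI nerves. Intact nerves had 1080.4, 853 and 906 CPM in dKO, against 995, 128 and 777 CPM in control. The genotypes did not overlap at 5 days, with dKO higher, but the value was not called (0.44 ± 0.58, adjusted p = 0.671). The lowest 5DPI library, control replicate 1, is the one with female counts, and without it the value was 0.21. The injury change in control nerve was -0.38 ± 0.58 (adjusted p = 0.632), and it rested on control intact replicate 2. Without that library Gas6 fell by 0.91 (adjusted p = 0.00417), without control 5DPI replicate 1 the value was -0.16, and without control intact replicate 1 it was 0.04, with adjusted p from 0.00201 to 0.988 over 16 alternatives. In dKO nerve, where 5DPI and intact values did not overlap, the change was -0.52 ± 0.58 (adjusted p = 0.507). A fit of the dKO libraries alone called it lower (-0.51, adjusted p = 0.0021), with adjusted p from 0.00156 to 0.637 over 16 alternatives. A stretch of 34 bases, 1.33% of Gas6 exon length, overlaps Tmem255b on the other strand, and the sources used here do not say whether reads were counted by strand.

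Set against Pros1, Gas6 was the more abundant TAM ligand in every library. The Gas6 to Pros1 ratio per kilobase of exon was 7.91, 7.05 and 7.98 in dKO 5DPI nerves and 1.88, 3.63 and 4.44 in control 5DPI nerves. In intact nerves it was 27.7, 18.8 and 25.9 in dKO and 24.7, 3.08 and 20.9 in control. The dKO 5DPI ratios lay above all control 5DPI ratios and below the intact ratios of every library other than control intact replicate 2.

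Lrp1, which also takes up protease and inhibitor complexes, had 584, 605 and 595 CPM in dKO 5DPI nerves, against 420, 492 and 504 CPM in control 5DPI nerves. Intact nerves had 814, 827 and 763 CPM in dKO, against 746, 714 and 655 CPM in control. Values of dKO nerve lay above those of control nerve in both states, and 5DPI values below intact values in both genotypes. Lrp1 fell with transection, by 0.43 ± 0.10 on the log2 scale in dKO nerve (adjusted p = 0.00293) and by 0.58 ± 0.10 in control nerve (adjusted p = 0.000246). The genotype difference at 5 days was 0.33 ± 0.10 (1.26-fold, adjusted p = 0.0423) and was lost in 10 of 16 alternatives, over adjusted p from 0.00512 to 0.540. Among these was the fit without control 5DPI replicate 1, the lowest of the 5DPI libraries (0.25, adjusted p = 0.172). In intact nerve the value was 0.18 ± 0.10 (adjusted p = 0.870). Sums of 10 fibroblast markers ran from 16569 to 18628 CPM in dKO 5DPI nerves, against 9305 to 14554 CPM in control 5DPI nerves, and sums of 10 endothelial markers from 794 to 1060.5 CPM, against 571 to 691 CPM in control. Of each list 1 marker was called higher at 5 days, and their part in the Lrp1 values was not tested.

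Msr1, the macrophage scavenger receptor, had 7.85, 10.3 and 10.1 CPM in dKO 5DPI nerves, against 11.5, 11.3 and 14.8 CPM in control 5DPI nerves. Intact nerves had 2.30, 2.62 and 2.75 CPM in dKO, against 2.78, 3.27 and 2.25 CPM in control. It rose 3.67-fold in dKO nerve (log2 change 1.88 ± 0.22, adjusted p = 1.03e-05) and 4.52-fold in control nerve (2.18 ± 0.22, adjusted p = 1.71e-06). The dKO 5DPI values lay below the control 5DPI values, but the difference was not called (-0.41 ± 0.21, adjusted p = 0.224).

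Mfge8, the integrin bridge, had 279, 139 and 166 CPM in dKO 5DPI nerves, against 133, 150 and 144 CPM in control 5DPI nerves. Intact nerves had 109, 93.7 and 89.2 CPM in dKO, against 99.3, 47.3 and 83.3 CPM in control. The 5DPI values lay above the intact ones in both genotypes, and dKO 5DPI replicate 2 was far above the rest. Mfge8 rose by 1.00 ± 0.28 on the log2 scale in dKO nerve (adjusted p = 0.0137) and by 0.89 ± 0.28 in control nerve (adjusted p = 0.0222). Without dKO 5DPI replicate 2 the rise in dKO nerve was 0.65 (adjusted p = 0.0446), with adjusted p from 0.000418 to 0.261 over 16 alternatives. The call in control nerve was lost in 7 of 16 alternatives, among them the fit without control intact replicate 2 (0.59, adjusted p = 0.0671, over a range from 0.00242 to 0.0765). The 8 mural cell markers, of pericytes and vascular smooth muscle, summed to 3529 CPM in dKO 5DPI replicate 2, against 899 and 1332 CPM in the other dKO 5DPI libraries and 784 to 1029 CPM in control 5DPI libraries. Their part in the Mfge8 values was not tested. The genotype value at 5 days was not called (0.45 ± 0.28, adjusted p = 0.329) and was 0.097 without dKO 5DPI replicate 2.

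**Figure D3:**
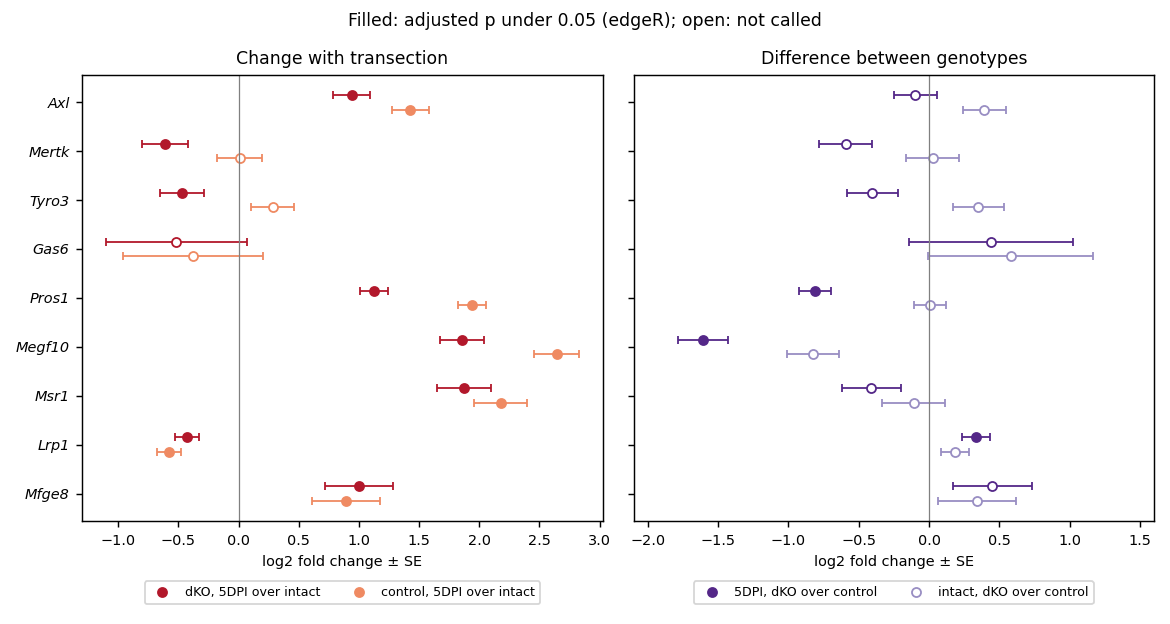
Log2 fold change of each gene with its standard error from the edgeR fit over 12 libraries: on the left 5DPI over intact nerve in dKO and control mice, on the right dKO over control in 5DPI and intact nerve; filled points have an adjusted p under 0.05. On the right only Pros1, Megf10 and Lrp1 at 5 days are filled, at -0.81, -1.61 and 0.33.

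Levels can be ordered only per length. In CPM per kilobase of merged exons, Gas6 was first and Msr1 last in every group, at 259 ± 12.9 and 1.48 ± 0.213 in dKO 5DPI, 191 ± 56.7 and 1.97 ± 0.311 in control 5DPI, 372 ± 46.6 and 0.403 ± 0.0368 in dKO intact, and 249 ± 177 and 0.436 ± 0.0802 in control intact nerves (SD, n = 3 each). Axl came next in each group, and its range overlapped that of Gas6 in control 5DPI nerve and in control intact nerve. In dKO 5DPI nerve the order continued with Mfge8 (41.5), Pros1 (34.0) and Lrp1 (33.6), whose ranges overlapped, then Mertk (17.8), Megf10 (4.07) and Tyro3 (1.94). In control 5DPI nerve the order after Axl was Pros1 (59.6), then Mfge8 (30.3), Mertk (26.8) and Lrp1 (26.6), whose neighbouring ranges overlapped, and last Megf10 (12.4) and Tyro3 (2.56), the last overlapping Msr1. In both intact groups the order after Axl was Lrp1, Mertk, Mfge8, Pros1, Tyro3 and Megf10. There, ranges of Mertk and Mfge8 overlapped in dKO nerve, and those of Axl and Lrp1, Mfge8 and Pros1, and Tyro3 and Megf10 in control nerve. Mean Megf10 was thus below mean Tyro3 in both intact groups and above it in both 5DPI groups.

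On the GRCm38 assembly (GENCODE M21), Axl lies on chromosome 7 at 25757273 to 25788705, minus strand, and Mfge8 on the same chromosome at 79133768 to 79149060, minus strand. Mertk (128698956 to 128802894) and Tyro3 (119797733 to 119818104) are both on the plus strand of chromosome 2. Gas6 (13465374 to 13494490) and Msr1 (39581685 to 39642673) are both on the minus strand of chromosome 8. Pros1 lies on chromosome 16 at 62854307 to 62929346, plus strand, and Lrp1 on chromosome 10 at 127538161 to 127621148, minus strand. Merged exon length ran from 2548 bases for Gas6 to 17717 bases for Lrp1. Apart from Gas6, no exon of the 9 genes overlapped another gene's exon.

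Macrophage markers rose with transection beside these genes. Counts for the lists here and below stand beside these shares of all tested genes. With transection 22% were called higher and 22.6% lower in dKO nerve, and 24.4% higher and 22.4% lower in control nerve. By genotype at 5 days 3.12% were called higher and 8.97% lower. Of 17 macrophage markers, 16 rose in dKO nerve and 16 in control nerve, with median log2 changes of 2.35 and 2.74. Their summed level ran from 1781 to 2425 CPM in dKO 5DPI nerves and from 1816 to 2896 CPM in control 5DPI nerves, against 311 to 515 CPM in dKO intact nerves and 297 to 474 CPM in control intact nerves. At 5 days 1 of the 17 was called lower in dKO nerve and none higher, with a median of -0.13. The defining marker Emr1 (Adgre1, the F4/80 antigen) averaged 44.2 ± 11.0 CPM in dKO 5DPI nerves and 46.2 ± 13.1 CPM in control 5DPI nerves, and Cd68, a lysosomal protein of macrophages, averaged 47.6 ± 14.4 CPM in dKO 5DPI nerves and 87.1 ± 14.4 CPM in control 5DPI nerves. Schwann cell markers moved the other way: of 12, 1 rose and 10 fell in dKO nerve, and 3 rose and 7 fell in control nerve. Their sum ran from 3756 to 4521 CPM in dKO 5DPI nerves and from 3509 to 5063 CPM in control 5DPI nerves, against 45630 to 52021 CPM and 41975 to 53680 CPM in dKO and control intact nerves. Sox10, the Schwann lineage transcription factor, averaged 182 ± 32.7 CPM in dKO 5DPI nerves and 302 ± 84.5 CPM in control 5DPI nerves. Of the 12, 2 were called higher and 5 lower in dKO nerve at 5 days. No macrophage or Schwann cell marker was at 0 in any library, and the part of cell numbers in the changes of the 9 genes was not tested.

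Other phagocytic receptors were followed as a list of 30, all tested. In dKO nerve 14 rose and 4 fell with transection (median log2 change 1.01), and in control nerve 12 rose and 6 fell (median 0.95). Havcr2, the phosphatidylserine receptor TIM-3, rose by 4.01 in dKO nerve and 4.25 in control nerve, and the lipid receptor Trem2 rose by 3.59 in dKO nerve and 3.66 in control nerve. Itgb5, the beta chain of an integrin that binds Mfge8, fell by 1.43 in dKO nerve and fell by 1.19 in control nerve. At 5 days 4 of the 30 were higher and 2 lower in dKO nerve (median 0.15). Bai1 (Adgrb1), a phosphatidylserine receptor, had 5.58 ± 0.768 CPM in dKO 5DPI nerves and 0.965 ± 0.696 CPM in control 5DPI nerves, a log2 difference of 2.57 ± 0.36 (adjusted p = 0.000395). The 2 lower genes were Havcr2 (-0.89, adjusted p = 0.0151) and Cd300lf, a lipid-binding receptor of myeloid cells (-1.31, adjusted p = 0.0242). Each was lost in 6 or 7 of 16 alternatives, the fit without control 5DPI replicate 1 among them.

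Of 28 genes of the engulfment machinery, which pass the receptor signal to the cytoskeleton and mature the phagosome, 8 rose and 11 fell in dKO nerve and 10 rose and 8 fell in control nerve. Among all tested genes 22% rose and 22.6% fell in dKO nerve, and 24.4% rose and 22.4% fell in control nerve. The lipid exporter Abca1 rose by 2.86 ± 0.18 on the log2 scale in dKO nerve and by 4.38 ± 0.19 in control nerve. Vav1, an exchange factor for Rac, rose by 2.69 in dKO nerve and 2.79 in control nerve, and the small GTPase Rac2 by 2.44 in dKO nerve and 3.10 in control nerve. Cybb, a subunit of the phagocyte oxidase, rose by 2.23 in dKO nerve and 2.37 in control nerve. At 5 days none of the 28 was higher and 8 were lower in dKO nerve (median -0.12, against -0.02 for all tested genes). Abca1 averaged 249 ± 31.6 CPM in dKO 5DPI nerves and 652 ± 80.5 CPM in control 5DPI nerves (log2 difference -1.39 ± 0.17, adjusted p = 0.000129). Gulp1, an adaptor that binds the tails of Megf10 and Lrp1, averaged 65.1 ± 7.72 CPM in dKO and 132 ± 31.5 CPM in control 5DPI nerves (-1.02 ± 0.17, adjusted p = 0.00169). Rhog, a small GTPase upstream of Rac, averaged 53.0 ± 3.09 CPM in dKO and 85.3 ± 11.7 CPM in control 5DPI nerves (-0.69 ± 0.13, adjusted p = 0.00318). With the library set term Abca1 stayed called and Gulp1 (-0.55, adjusted p = 0.184) and Rhog (-0.48, adjusted p = 0.203) did not, over ranges of adjusted p from 1.43e-05 to 0.184 and from 0.00034 to 0.203.

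Signals on the target cell and their receptors, 19 tested of 20, gave 7 rises and 4 falls in dKO nerve and 8 rises and 3 falls in control nerve. Panx1, the channel that releases nucleotides from dying cells, rose by 2.48 in dKO nerve and 3.05 in control nerve. The nucleotide receptor P2ry2 fell by 2.11 in dKO nerve and fell by 2.54 in control nerve. At 5 days 1 was higher and 4 lower in dKO nerve. Anxa1, which binds phosphatidylserine, averaged 233 ± 13.0 CPM in dKO 5DPI nerves and 518 ± 51.9 CPM in control 5DPI nerves (-1.16 ± 0.12, adjusted p = 3.12e-05). Cd24a, a surface protein read by Siglec receptors, was lower by a log2 difference of -1.39 ± 0.24 (adjusted p = 0.00255), and the nucleotide receptor P2ry12 by -0.80 ± 0.19 (adjusted p = 0.012). With the library set term both calls were lost, at -1.02 for Cd24a and -0.75 for P2ry12.

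Of 18 partners and regulators of the TAM receptors, 3 rose and 5 fell in dKO nerve and 5 rose and 7 fell in control nerve. Among all tested genes 44.7% were called in dKO nerve and 46.8% in control nerve. The sheddase Adam10 fell by 2.18 in dKO nerve and fell by 1.98 in control nerve, and the cytokine signal inhibitor Socs3 rose by 1.16 and 1.22 in those nerves. The kinase subunit Pik3r1 fell by 1.33 in dKO nerve and fell by 1.64 in control nerve, and the nuclear receptor Nr1h2 fell by 0.76 in dKO nerve and fell by 0.71 in control nerve. At 5 days 2 of the 18, Adam10 (-0.60 ± 0.17, adjusted p = 0.0373) and the adaptor Grb2 (-0.34 ± 0.10, adjusted p = 0.0346), were lower in dKO nerve. The call of Adam10 was lost in 10 of 16 alternatives and that of Grb2 in 12. Of 17 tested partners of Lrp1, 7 rose and 2 fell in dKO nerve and 8 rose and 5 fell in control nerve. The tissue plasminogen activator gene Plat rose by 1.36 in dKO nerve and 1.14 in control nerve, and the adaptor Apbb1 fell by 1.51 in dKO nerve and fell by 1.36 in control nerve. The urokinase receptor gene Plaur rose by 1.87 in dKO nerve and 3.94 in control nerve, and Ptx3, a secreted pattern recognition protein, rose by 3.67 in dKO nerve and 3.84 in control nerve. The protease inhibitor Serpine2 was the 1 gene of these 17 that was called by genotype at 5 days, with 298 ± 10.5 CPM in dKO and 135 ± 25.3 CPM in control nerves (1.14 ± 0.13, adjusted p = 6.05e-05). In intact nerve none of the genes in these 5 lists was called by genotype.

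The genes whose log2 CPM followed each of the 9 most closely over the 12 libraries, among 12676 genes, are a description only, since all libraries share the injury contrast. They were Hn1 (Pearson r = 0.996), Nusap1 and D2Ertd750e for Pros1, Nrcam (0.984), Smc2 and Tmc7 for Megf10, Tulp2 (0.988), Cd97 and Ddx39 for Axl, and Lcp1 (0.993), Cotl1 and Trem2 for Msr1. Lrp1 was followed by Iqsec2 (0.976), Plekhg5 and Rarg, and Mfge8 by Bgn (0.977), Mgp and Speg. Gas6 was followed by AL732403.1 (0.987), Ccdc3 and Slc16a9, all 3 of which are among the 97 genes low in control intact replicate 2. Likeness was weaker for Mertk, led by Btaf1 (0.897), Rab10 and Atxn1, and for Tyro3, led by Mir678 (0.846), Tpi1 and Mtap1s.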

How the data were processed

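Libraries from polyadenylated RNA were made with an Ion Total RNA-Seq kit, per the labels' protocols. The authors deposited a table of raw counts per gene model and a table of normalized values (unit signal), and per the submitters' processing notes DESeq2, R 4.2.1 and build mm10 were used. Aligner, counter, annotation and use of strand: not given in the sources used here. Each library's deposited normalized signal values were a constant multiple of its raw counts.

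All tests used the raw counts as deposited, in edgeR 4.0.16 under R 4.3.3: TMM scaling, a low-count filter (filterByExpr, minimum count 10), 1 robust quasi-likelihood fit with a mean per group over 12 libraries, and Benjamini-Hochberg adjustment over 22384 gene models at 0.05. Standard errors are the log2 change divided by the square root of F. CPM are TMM-scaled. Library size limits precision most for genes of low count, such as Msr1 with 60 to 371 counts a library. The code was tested on simulated counts.

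The 9 members and all lists were chosen with earlier results of these data known. List genes named are the up to 3 of smallest adjusted p per list and comparison, and the 3 genes most like each member. List counts are descriptions, with no set test. Alternatives were DESeq2 1.42.0, other size factors, other filters, only the groups compared, a replicate block, a library set term, limma 3.58.1 on log2 of the authors' normalized values plus 1, and leaving out each library. Leaving out both doubted control libraries was chosen after seeing the data.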

Additional observations from a re-analysis of the deposited data

Results flagged for a closer look

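The response to transection was called different between genotypes by a test of the difference itself (edgeR, dKO change minus control change, log2 scale) for Pros1 among the 9 genes. The same test called 7 genes of the lists of receptors, machinery, target signals and partners. By list, 1 higher and 1 lower were among 30 other receptors, 2 lower among 28 machinery genes and 1 lower among 19 target signals. Of 17 Lrp1 partners 1 was higher and 1 lower, and of 18 TAM partners 0 were called. Among all tested genes 2.9% were called, 0.737% higher and 2.17% lower. Pros1 differed by -0.82 (adjusted p = 0.0135). The lipid exporter Abca1 differed by -1.52 (adjusted p = 0.00329), Anxa1 by -1.30 (adjusted p = 0.000694), and Rhog by -0.83 (adjusted p = 0.0229). The receptor Cd300lf differed by -2.65 (adjusted p = 0.0323) and Plaur by -2.07 (adjusted p = 0.0457). In intact nerves Cd300lf was near the floor, with means of 0.720 CPM in dKO and 0.288 CPM in control, so its changes rest on low counts. Pros1, Abca1, Anxa1, Rhog, Cd300lf and Plaur rose in both genotypes, by less in dKO nerve. For Bai1 the difference was 2.44 (adjusted p = 0.0123): it fell by 0.96 in dKO nerve and fell by 3.40 in control nerve. For Serpine2 it was 1.21 (adjusted p = 0.00199): Serpine2 rose by 0.58 in dKO nerve and fell by 0.63 in control nerve. Over 21 alternatives, the calls of Anxa1 and Serpine2 were kept in 21, those of Abca1, Bai1 and Pros1 in 20, that of Rhog in 11, that of Cd300lf in 9 and that of Plaur in 5.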

How the results depend on the processing

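Of the calls by genotype at 5 days, those of Megf10 and Pros1 were kept under every alternative run, while the 1 member called higher, Lrp1, was lost (0 called) with no low-count filter, with only the groups compared, with the replicate block, with the library set term and without both doubted control libraries, and 0 to 1 were called with single libraries left out. Members called lower with transection in control nerve numbered 2 without both doubted libraries and 1 to 2 with single libraries left out. In dKO nerve they numbered 1 with upper-quartile factors, 1 with the library set term and 1 to 2 with single libraries left out. For the difference between injury responses, 0 were called lower with the library set term, 2 without both doubted libraries and 1 to 2 with single libraries left out. Directions reversed only for values near 0 or set by 1 library. Mertk in control nerve with transection was -0.041 with DESeq2, -0.041 with its size factors, -0.0019 without a filter and -0.018 from the authors' normalized values, and -0.22 to 0.13 with single libraries left out; Gas6 there was -0.91 to 0.042 with single libraries left out. Between genotypes in intact nerve, Pros1 was -0.0089 with DESeq2, -0.0093 with its size factors, -0.015 with upper-quartile factors, -0.014 from the authors' normalized values and -0.10 to 0.089 with single libraries left out. There Mertk was -0.18 to 0.22 and Msr1 -0.24 to 0.042 with single libraries left out, and Msr1 was 0.026 without both doubted libraries. Axl between genotypes at 5 days was 0.013 with upper-quartile factors and 0.020 with the library set term. For the difference between responses, Gas6 was 0.11 without both doubted libraries and -0.59 to 0.36, and Mfge8 -0.24 to 0.38, with single libraries left out. The cause was not tested.

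Intact nerves were taken from the uncut side, but the labels do not tie libraries to animals. In deviations from group means, same-numbered dKO 5DPI and intact libraries correlated at 0.118, 0.10 and -0.013. Those of different numbers correlated at -0.14 to 0.040. In control nerve same-numbered libraries correlated at -0.090 and -0.0050, and those of different numbers at -0.099 to 0.10. Whether any cut and uncut libraries are paired is not known, and the main fit treats all as unpaired. With the replicate block, the genes called by genotype at 5 days numbered 349 higher and 1037 lower, against 699 and 2008 without it, Mertk was called (-0.65, adjusted p = 0.0151) and Lrp1 was not (0.32, adjusted p = 0.149); Mfge8 in control nerve also lost its call (0.90, adjusted p = 0.0693).

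Over all genes, upper-quartile factors moved the median log2 change by 0.14 for transection in dKO nerve (6246 higher and 4044 lower, against 4930 and 5067), by 0.11 for genotype at 5 days (1075 and 1345) and by 0.13 for the difference between responses (224 and 296, against 165 and 485). Over the genes that each fit kept, DESeq2 moved it by 0.21, 0.13 and 0.16 for those comparisons, and no low-count filter moved it by 0.18 for transection in dKO nerve. DESeq2 called 1261 genes higher by genotype at 5 days, and 340 higher and 735 lower for the difference. The library set term left 2146 and 2153 genes for transection in dKO nerve, 145 and 370 for genotype at 5 days, and 75 and 97 for the difference; the replicate block left 294 lower for the last. DESeq2 called 4 higher and 5 lower by genotype in intact nerve, against 0 and 1. Leaving out control 5DPI replicate 4 gave 1421 higher and 2804 lower by genotype at 5 days. The fit of only the groups compared was not run for the difference, which needs all 4 groups.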
